A study of Mus musculus with 18 samples.

Results

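Translation elongation factors carry out the steps by which the ribosome adds amino acids to a growing protein. The factor eEF1A, made from *Eef1a1* or *Eef1a2*, brings aminoacyl-tRNA to the ribosome as a complex with GTP. The eEF1B subunits from *Eef1b2*, *Eef1d* and *Eef1g* form the complex that recharges eEF1A with GTP, and eEF2, from *Eef2*, moves the ribosome along the mRNA. The kinase from *Eef2k* phosphorylates eEF2 and slows elongation, and *Eef1e1*, also known as Aimp3, encodes a small protein with similarity to the eEF1B subunits that sits in the multi-tRNA synthetase complex. In the nervous system *Eef1a2* is known as the form of mature neurons, while *Eef1a1* is the widespread form.

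The 8 genes were found by symbol in the locus table. Each had 1 locus, so that 8 of 52179 loci with a symbol were members, and all 8 were among the 15579 loci that were tested because their normalized count averaged 10 or more. The samples were RNA from Neuro2A (N2A), a mouse neuroblastoma cell line with the genotype label WT. Cells were transfected with a biotinylated *miR-92b* mimic or a biotinylated scrambled sequence (Scr), both at 25 nM, or left untransfected (control), and RNA was collected on streptavidin beads from nuclear and from whole cell lysates. This gave 6 groups of 3 samples, from 1 cell line under overexpression of a mimic. The labels do not say whether the 3 samples of a group came from separate cultures, so p-values measure the spread between these samples, which may be technical.

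Loci with a symbol held 3752991 to 22920037 reads in a sample, and the member loci held between 0 reads (*Eef1e1*) and 123702 reads (*Eef1a1*) in a sample. All 9 loci of the sympathetic neuroblast marker list, among them *Hand2* and *Dbh*, were detected. Of 4 nuclear-retained RNAs tested, 3 were higher in nuclear samples (*Malat1*, log2 fold change of 1.08), and all 4 cytoplasmic mRNAs of the marker list were lower (*Gapdh*, log2 fold change of -2.35). Nuclear Scr samples 2 and 3 stood apart. Their summed normalized count over the 4 cytoplasmic mRNAs was 5890 and 7946, against 2380 to 3866 in the other 7 nuclear samples. Whole cell *miR-92b* sample 3 stood apart as well, with a sum of 46683 against 13578 to 25878 in the other 8 whole cell samples. These 3 samples, together with nuclear control sample 3, also had reads on the fewest loci of their compartment, and results are given with and without these 4 where they differ. The choice was uneven between compartments, as only the lowest whole cell sample (14300 loci) was among the 4. Whole cell Scr sample 1 (15146) and *miR-92b* sample 2 (15826) were kept, while nuclear control sample 3 (15732) was left out.

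The sequence that bears on every comparison with the mimic is the mature strand of *miR-92b*. It lies on chromosome 3 of GRCm38, chr3:89227126-89227147 on the minus strand, and is shown as RefSeq gives it, with the seed (bases 2 to 8) in capitals.
mmu-miR-92b-3p: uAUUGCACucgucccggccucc
A transcript was scanned for GTGCAAT, the match to bases 2 to 8, and for TGCAATA, the match to bases 2 to 7 followed by A, on the sense strand, with the longest coding transcript of each gene in GENCODE M21. Such a match was found in the 3′ UTR of 11.6% of 21028 protein-coding genes and in the coding sequence of 8.41%. None of the 8 elongation factor genes had a match in its 3′ UTR, and *Eef1d* alone had 1 in its coding sequence, at base 986 of transcript Eef1d-206, shown here because it is the only one, with the 7 matching bases in capitals.
Eef1d: accatcggagcTGCAATAacgtaggaaac
These matches describe letters in annotated transcripts and not binding. *Eef1d* has 18 annotated transcripts, and whether those other than Eef1d-206 hold this match was not determined.

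A comparison of *Eef1a1* with *Eef1a2* requires that their reads can be told apart. Their coding sequences, of 1389 and 1392 bases in GENCODE M21, were identical at 80.1% of aligned bases and differed at 276. The longest stretch held by both was 23 bases, at coding bases 304 to 326 of each.
Eef1a1 and Eef1a2: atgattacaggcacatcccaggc
No other gene had a stretch of at least 300 bases with at least 90% identity to *Eef1a2*, while *Eef1a1* had 15 such processed pseudogenes. The 9 of these with a locus in the table together reached at most 1.57% of the *Eef1a1* value in a nuclear sample and 0.138% in a whole cell sample. Copies were a larger part for *Eef1g*, whose 3 pseudogene loci reached 14.6% of its value in a nuclear sample and 22.9% in a whole cell sample, so the *Eef1g* level is less certain. For *Eef2*, 3 pseudogene loci reached 8.17% in a nuclear sample and 0.733% in a whole cell sample.

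*Eef2* was also among the genes with which the study assessed its fractionation by RT-qPCR, with a pair of primers for mRNA and a pair for intron-containing RNA. They are shown because they mark which RNA the assays could see.
Eef2 fw: tgcatcattgaggagtctgg
Eef2 rev: cgatatgacacaacagggt
Eef2 intr_fw: ctcatccttctgcctatgtg
Eef2 intr_rev: atatgacacaacagggtcag
In Eef2-201 the mRNA pair lay in the coding sequence, at bases 1702 to 1721 and, on the opposite strand, 1817 to 1835. The reverse primer of the intron pair lay at bases 1814 to 1833, and its forward primer matched no annotated *Eef2* transcript. The locus counts used here join spliced and unspliced reads of the exons and cannot separate these forms.

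The first comparison asked how the elongation factor RNAs were divided between nuclear and whole cell samples. Over the 3 treatments, 5 of the 8 loci were lower in nuclear samples and none was higher (limma, adjusted p below 0.05). Across all tested loci, 15.8% were lower and 15.3% were higher. The normalized count is a share of the library, so lower means a smaller share of the collected RNA and not a measured amount per nucleus or per cell. The median log2 fold change was -2.19 over the 8 members and 0.14 over all tested loci, and no member had a positive value. Whether nuclear and whole cell values overlap is given below as a description of the members, since its share over all tested loci was not determined.

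*Eef1a1* had the largest difference among the members. Its locus lies at chr9:78447865-78489151 and also holds *Gm26377*, a miRNA gene. Its normalized counts were 1576, 1459 and 2789 in nuclear control, 1970, 5143 and 7098 in nuclear Scr and 1934, 2291 and 2261 in nuclear *miR-92b* samples. The whole cell values were 35328, 26904 and 39851 in control, 22404, 20959 and 32397 in Scr and 24424, 16356 and 75335 in *miR-92b*. The 9 nuclear values were all below the 9 whole cell values, and nuclear Scr samples 2 and 3 were the highest of the nuclear samples. The difference was 11.6-fold (95% interval 8.19 to 16.4), or -3.53 ± 0.24 (SE) on the log2 scale, with an adjusted p of 2.29e-10 in limma. Only 0.302% of tested loci had a log2 fold change as low.

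*Eef2*, at chr10:81176631-81182507, followed with a 7.47-fold difference (5.59 to 9.97; log2 fold change -2.90 ± 0.20; adjusted p = 2.63e-10, limma). Its normalized counts were 1674, 1596 and 2674 in nuclear control, 2163, 4285 and 5208 in nuclear Scr and 1713, 2107 and 2163 in nuclear *miR-92b* samples. The whole cell values were 20353, 16733 and 24046 in control, 14157, 12299 and 18288 in Scr and 15232, 11488 and 42643 in *miR-92b*. The nuclear and whole cell values did not overlap, and the same nuclear Scr samples and the same whole cell *miR-92b* sample were highest.

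*Eef1a2*, the neuronal form, at chr2:181142667-181157045, had a smaller difference of 3.83-fold (2.79 to 5.27; log2 fold change -1.94 ± 0.22; adjusted p = 4.64e-07, limma). Its normalized counts were 208, 250 and 369 in nuclear control, 338, 566 and 702 in nuclear Scr and 221, 332 and 351 in nuclear *miR-92b* samples. Whole cell samples held 1598, 1471 and 1801 in control, 1211, 1107 and 1338 in Scr and 753, 684 and 3113 in *miR-92b*. The compartments overlapped at 1 point, where nuclear Scr sample 3 lay above whole cell *miR-92b* sample 2.

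The 3 eEF1B subunit genes differed among themselves. *Eef1b2*, which encodes a guanine nucleotide exchange subunit, was 6.58-fold lower in nuclear samples (log2 fold change -2.72 ± 0.23; adjusted p = 5.46e-09, limma), from 99.5 to 478 (median 167) in nuclear and from 557 to 2735 (median 1224) in whole cell samples. *Eef1g*, which encodes the structural subunit, was 2.49-fold lower (-1.32 ± 0.16; adjusted p = 1.63e-06, limma), from 685 to 947 (median 749.9) in nuclear and from 1174 to 3945 (median 1673) in whole cell samples. Neither gene overlapped between compartments. *Eef1d*, which encodes the second exchange subunit, had values of 1036 to 1660 in nuclear and 1088 to 1967 in whole cell samples, which overlapped, and did not pass the test (log2 fold change -0.15, 95% interval -0.38 to 0.09; adjusted p = 0.347, limma). The locus of *Eef1d*, at chr15:75890964-75909556, also holds *Naprt*, an enzyme of NAD synthesis encoded beside it on the same strand, and its value cannot be split between the genes. The locus of *Eef1b2*, at chr1:62958418-63180486, shares its listed region with 11 other loci and holds the small RNA gene *Gm27390*, and that of *Eef1g* lies at chr19:8967041-8981534.

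*Eef2k*, the kinase of eEF2, at chr7:120842831-120907728, had 365 to 661 normalized counts in nuclear and 319 to 754 in whole cell samples. These overlapped over most of their range, and the log2 fold change of -0.12 had a 95% interval of -0.45 to 0.21 (adjusted p = 0.591, limma). It turned to 0.00016 with quantile normalization and to 0.01 without the 4 samples with few loci, also short of the threshold. In normalized counts *Eef2k* and *Eef1d* were thus the members whose nuclear and whole cell values lay closest, where the value of *Eef1d* is that of its locus with *Naprt*.

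*Eef1e1*, at chr13:38645648-38659028, had the fewest reads of the members, and its call depended on the method. Its nuclear values were 5.78, 9.41 and 20.6 in control, 12.2, 6.91 and 0 in Scr and 24.6, 10.1 and 10.3 in *miR-92b*. Its whole cell values were 48.2, 147 and 110 in control, 0, 146 and 150 in Scr and 99.9, 4.28 and 208 in *miR-92b*. A whole cell Scr sample and a nuclear Scr sample held no read, which at their depth allows up to 2.63 and 3.78 normalized counts (3 reads), for counting error only. The log2 fold change was -2.43 ± 0.94 with an adjusted p of 0.0505 in limma. It was -3.26 with an adjusted p of 0.0027 in edgeR and -3.28 with 4.28e-05 in DESeq2, both on the recovered reads. Leaving out whole cell Scr sample 1 gave an adjusted p of 0.00248 in limma, and leaving out the 4 samples with few loci gave 0.237.

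**Figure D1:**
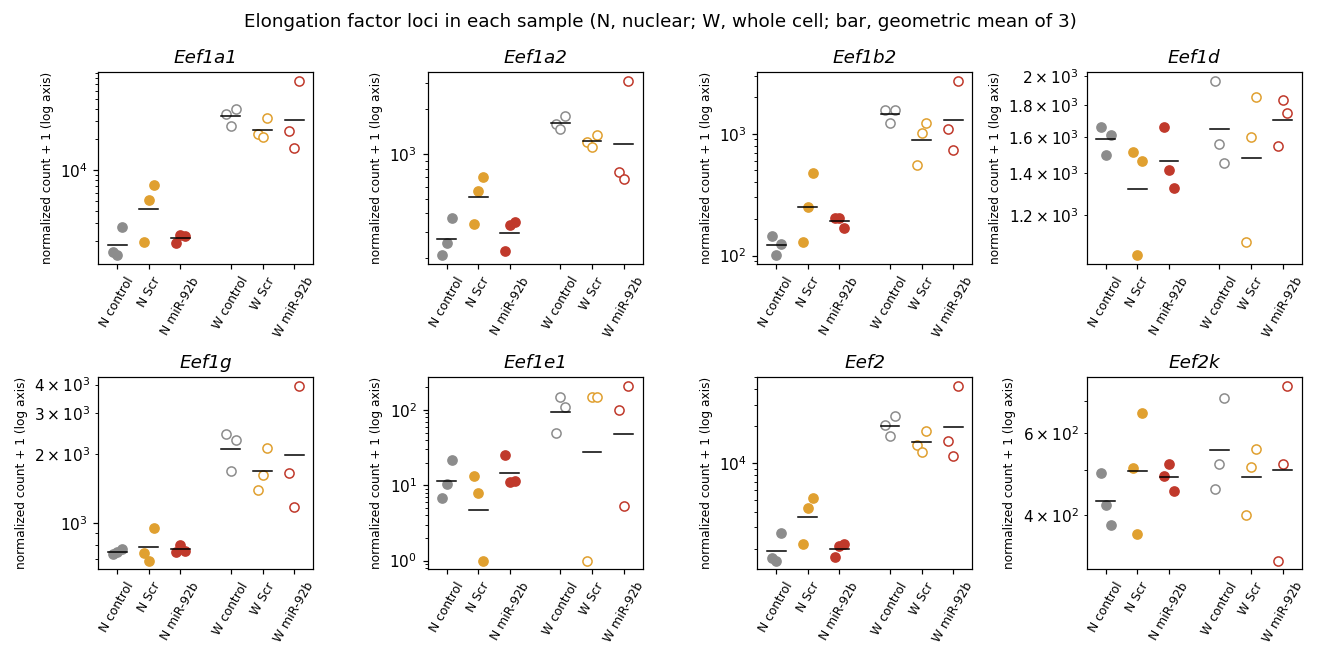
Normalized count plus 1 (log axis) of each elongation factor locus in the 18 samples, by group. Filled points are nuclear and open points whole cell samples, and the bar is the geometric mean of 3. *Eef1a1*, *Eef2*, *Eef1b2* and *Eef1g* separate by compartment, while *Eef1d*, *Eef2k*, *Eef1a2* and *Eef1e1* overlap.

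Within each treatment the order was similar. In control samples 5 members were lower in nuclear samples (6.91% of all tested loci were), from -4.18 on the log2 scale for *Eef1a1* to -1.49 for *Eef1g*. In *miR-92b* samples the same 5 genes were lower (6.63% of all tested loci were), from -3.85 for *Eef1a1* to -1.35 for *Eef1g*. In Scr samples 4 were lower (3.7% of all tested loci were), with -2.57 for *Eef1a1* and -2.01 for *Eef2*, and *Eef1a2* had a log2 fold change of -1.24 with an adjusted p of 0.059 in limma. Without whole cell Scr sample 3 the Scr count was 2, in a fit whose share over all tested loci is not given here. The cytoplasmic mRNAs were also high in 2 of the nuclear Scr samples. Leaving out the 4 samples with few loci leaves 1 nuclear Scr sample, which is assumed to vary like the other groups. The Scr values were then -3.65 for *Eef1a1*, -2.77 for *Eef2* and -1.84 for *Eef1a2*. The value of *Eef1a1* was then -4.47 in control and -3.21 in *miR-92b* samples. The test of whether the compartment difference itself differed between Scr and control called no member (0% of all tested loci, adjusted p of at least 0.886, limma). Neither edgeR nor DESeq2 called a member, while DESeq2 called 7 loci higher and 1 lower of 15561. At an unadjusted p below 0.05 there were 4 of 8 members in limma, beside 823 of 15579 tested loci. The 4 members had values of 1.74 for *Eef1b2*, 1.60 for *Eef1a1*, 1.37 for *Eef2* and 1.35 for *Eef1a2*. Leaving out the 4 samples with few loci gave 0.82, 0.82, 0.86 and 0.98, in the same order and again short of the threshold.

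**Figure D2:**
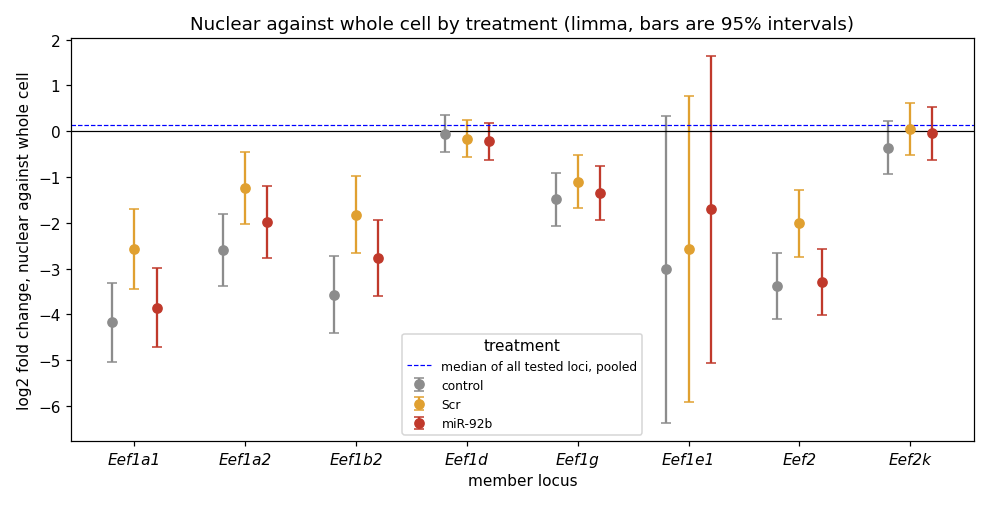
Log2 fold change of each member, nuclear against whole cell, in control, Scr and *miR-92b* samples (limma, n = 3 against 3, bars are 95% intervals), with the pooled median of all tested loci (0.14) as a dashed line. *Eef1a1*, *Eef2* and *Eef1b2* lie between -4.18 and -1.82 and *Eef1d* and *Eef2k* lie near 0, while the interval of *Eef1e1* spans 0 in every treatment.

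The levels of *Eef1a1* and *Eef2* were then set beside the 4 cytoplasmic mRNAs, a ratio chosen after the values were seen. *Eef1a1* was 0.408 to 0.796 of the summed cytoplasmic mRNAs in 7 nuclear samples and 0.873 and 0.893 in nuclear Scr samples 2 and 3. The whole cell ratio was 1.20 to 1.74, with 1.61 in *miR-92b* sample 3, so that this sample lay within the range of the others once set against these mRNAs. For *Eef2* the ratio was 0.433 to 0.763 in nuclear and 0.765 to 0.98 in whole cell samples. The nuclear and whole cell ratios did not overlap for either gene. For *Eef1a2* they did, with 0.0538 to 0.108 in nuclear and 0.0445 to 0.0768 in whole cell samples.

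Levels of different members can be compared only per length. By FPKM, *Eef1a1* (median 1661) and *Eef2* (582) came first in whole cell samples, followed by *Eef1b2* (146), *Eef1g* (103), *Eef1a2* (64.6), *Eef1d* (52.2), *Eef1e1* (16.9) and *Eef2k* (15.1). Within each of the 9 whole cell samples *Eef1a1* was above *Eef2* and *Eef2* above *Eef1b2*, whereas *Eef1b2* and *Eef1g* (6 of 9 samples), *Eef1a2* and *Eef1d* (6 of 9) and *Eef1e1* and *Eef2k* (4 of 9) changed places between samples. In nuclear samples the medians again put *Eef1a1* (171) and *Eef2* (65.3) first, followed by *Eef1g* (35.7), *Eef1b2* (31.3) and *Eef1d* (24.7). *Eef1a1* was above *Eef2* in all 9 nuclear samples, but in nuclear control sample 1 *Eef1b2* (196) was above both *Eef1a1* (137) and *Eef2* (48.8). *Eef1a2* stood lower in the nuclear order than in the whole cell order. Its median FPKM of 7.42 was below that of *Eef2k* (14.7), and it was above *Eef2k* in 3 of 9 nuclear samples, compared with 9 of 9 whole cell samples. The order depends on the transcript lengths by which the authors' software divided. For *Eef1a2* the implied length, described below, had a median of 5628 nucleotides in nuclear and 2724 in whole cell samples.

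The balance between *Eef1a1* and *Eef1a2* was taken as the log2 ratio of their values in each sample, a measure that the scaling between libraries does not touch. The ratio of normalized counts, which is not per length and so gives no relative level of the 2 genes, was compared between samples. It was 5.82 to 10.1 in nuclear samples and 18.3 to 32.4 in whole cell samples, without overlap. The log2 ratio was 2.80 ± 0.22 in nuclear control, 3.02 ± 0.42 in nuclear Scr and 2.87 ± 0.23 in nuclear *miR-92b* samples (SD, n = 3 each). The whole cell values were 4.38 ± 0.16 for control, 4.35 ± 0.21 for Scr and 4.73 ± 0.25 for *miR-92b* (again SD and n = 3). Averaged over treatments, the nuclear ratio was lower by a log2 difference of -1.59 (exact permutation test within treatment, two-sided, p = 0.00025, the smallest it can give). The difference was -1.58 in control, -1.33 in Scr and -1.86 in *miR-92b* samples, each with the smallest exact permutation p that 3 against 3 allows (0.1).

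The same balance in FPKM did not separate the compartments. *Eef1a1* exceeded *Eef1a2* 15.3-fold to 34.2-fold in nuclear and 22.2-fold to 39.5-fold in whole cell samples, and the nuclear minus whole cell log2 difference of -0.28 had an exact permutation p of 0.0873. Within treatments it was 0.09 in control (exact permutation p = 0.8), -0.57 in Scr (exact permutation p = 0.1) and -0.35 in *miR-92b* samples (exact permutation p = 0.2), so that control had the other sign and Scr and *miR-92b* the sign seen in counts. *Eef1a2* made up 2.84% to 6.15% of the summed FPKM of both genes in nuclear and 2.47% to 4.31% in whole cell samples. The compartment difference in the balance was thus smaller in FPKM than in counts and did not pass the test there. By FPKM *Eef1a1* was far above *Eef1a2* in every sample.

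**Figure D3:**
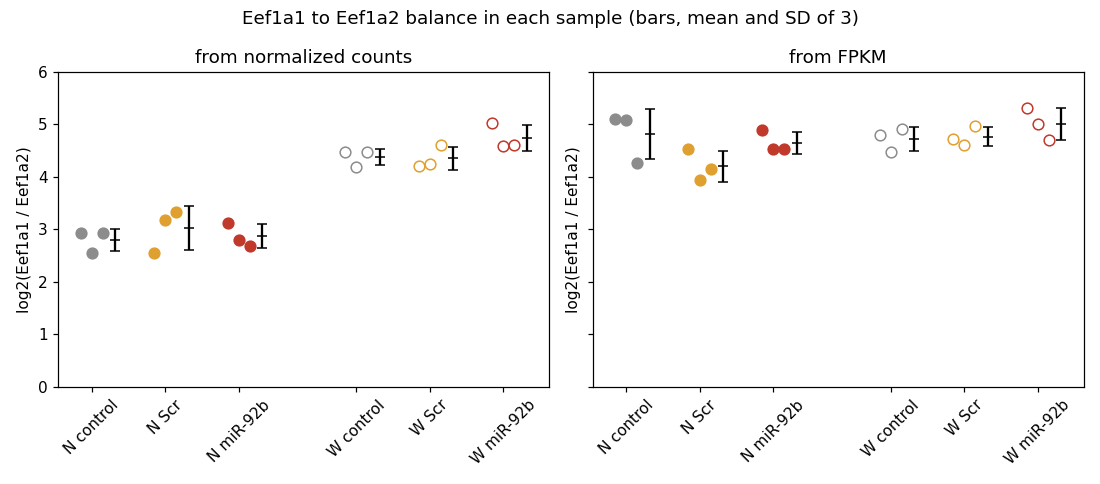
Log2 ratio of *Eef1a1* to *Eef1a2* in each sample from normalized counts (left) and from FPKM (right), with the mean and SD of 3 samples per group. From counts the nuclear samples (2.54 to 3.34) lie below all whole cell samples (4.19 to 5.02), and from FPKM (3.93 to 5.09 and 4.47 to 5.30) they overlap.

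The normalized count divided by the FPKM gives the transcript length with which the authors' software scaled a locus, here put in nucleotides for each sample by 872 to 2115 loci of 1 gene with 1 annotated transcript. For *Eef1a2*, whose only annotated transcript has 2084 bases, the implied length was 2383 to 3155 nucleotides in whole cell samples. In nuclear samples it was 2841 to 8329 (median 5628), with the 3 lowest values in nuclear Scr samples 2 and 3 and nuclear control sample 3. For *Eef1a1* the implied length was shorter in nuclear samples (1434 to 2033) than in whole cell samples (2083 to 2246), without overlap, beside 1794 bases for its reference transcript. By construction, the ratio of the implied lengths is what separates the balance in counts from the balance in FPKM. The lengths are a description chosen after the values were seen, with no test.

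*Eef1d* had the longest nuclear lengths, 3024 to 11184 nucleotides (median 7722) against 2609 to 5529 in whole cell samples, and a reference transcript of 2842 bases. In FPKM *Eef1d* was lower in nuclear samples (log2 fold change -1.02, adjusted p = 0.000837, limma), whereas in normalized counts it was not called. *Eef1g* had lengths of 2327 to 3880 in nuclear and 1965 to 2660 in whole cell samples. *Eef2* varied least apart from *Eef1e1*, with 3913 to 4382 in nuclear and 3483 to 4004 in whole cell samples, and so gave like results in both units (-2.90 in counts and -3.05 in FPKM). For *Eef1b2* the length ranged from 91.5 to 1190 in nuclear samples, so that its FPKM is the least certain of the members. Whether intron-containing RNA, other isoforms or the neighbouring genes of a locus set these lengths was not tested.

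**Figure D4:**
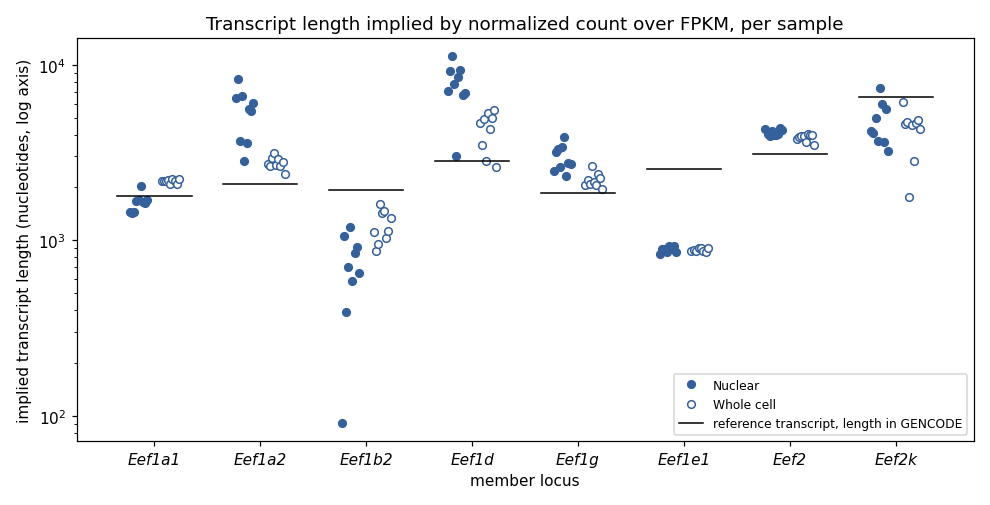
Transcript length implied by normalized count over FPKM (nucleotides, log axis) for each member and sample, with nuclear samples filled, whole cell samples open and the length of the reference transcript as a line. *Eef1a2* and *Eef1d* reach 8329 and 11184 in nuclear samples, and *Eef1a1* lies lower in nuclear than in whole cell samples.

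The comparison of *miR-92b* with Scr asked which RNAs were collected with the mimic beyond the scrambled sequence. No member passed the threshold in nuclear samples, in which 0% of all tested loci did (limma, with 2 of 8 members and 687 loci at an unadjusted p below 0.05). edgeR and DESeq2 called no member either, with 0 of all tested loci called in edgeR and 1 of 15561 in DESeq2. *Eef2* had a log2 fold change of -0.88 (95% interval -1.60 to -0.15) and *Eef1a1* one of -0.95 (-1.81 to -0.08), with unadjusted p-values of 0.0195 and 0.0334 that did not pass after adjustment in limma. Nuclear Scr samples 2 and 3 held the highest values of both genes, as given above, while Scr sample 1 lay within the range of the *miR-92b* samples for *Eef1a1*. Without the 4 samples with few loci, which leaves 1 nuclear Scr sample that is assumed to vary like the other groups, the values were 0.13 for *Eef1a1* and -0.13 for *Eef2*. *Eef1a2* had -0.79 with all samples and -0.19 without these 4.

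In whole cell samples no member passed the threshold for *miR-92b* against Scr, and 0.00642% of all tested loci (1 locus) did in limma. No member had an unadjusted p below 0.05 in limma. edgeR called no member and 1 of 15579 loci, while DESeq2 called no member but 96 loci higher and 80 lower of 15561. The log2 fold changes ranged from -0.05 (*Eef1a2*, 95% interval -0.85 to 0.74) to 0.78 (*Eef1e1*, -2.57 to 4.12), with 0.33 (-0.54 to 1.19) for *Eef1a1* and 0.41 (-0.31 to 1.13) for *Eef2*. *miR-92b* sample 3 was the highest of the whole cell samples for 7 of the 8 members, with *Eef1d* the exception. Without the 4 samples with few loci, of which this was the only one from whole cells, *Eef1a1* had -0.31 and *Eef2* -0.15. *Eef1a2* then lay furthest from 0, at -0.76, with an unadjusted p of 0.00121 and an adjusted p of 0.156 in limma, and its 753 and 684 normalized counts in the other *miR-92b* samples lay below the 1107 to 1338 of the Scr samples. With all samples the interval of *Eef1a1* does not exclude a 2.29-fold higher level. *Eef1d*, the member with a seed match in the coding sequence of its scanned transcript, had 0.15 (-0.26 to 0.56) in nuclear and 0.21 (-0.20 to 0.61) in whole cell samples.

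The test of whether the *miR-92b* against Scr effect differed between compartments called no member (0.00642% of all tested loci, 1 locus, in limma). edgeR called no member and 1 locus, while DESeq2 called no member but 15 loci higher and 25 lower of 15561. At an unadjusted p below 0.05 in limma there were 2 of 8 members, beside 1123 of 15579 tested loci. The values were -1.29 (-2.31 to -0.26) for *Eef2* and -1.28 (-2.50 to -0.05) for *Eef1a1*. Both had the other sign without the 4 samples with few loci, at 0.03 for *Eef2* and 0.44 for *Eef1a1*.

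Against untransfected control, no member passed the threshold for *miR-92b* in nuclear samples (0% of all tested loci in limma, none of the 8 members at an unadjusted p below 0.05) or in whole cell samples (0.00642%, 1 locus, again with none of the 8 at an unadjusted p below 0.05). The nuclear values ranged from -0.12 (*Eef1d*) to 0.65 (*Eef1b2*), with 0.04 (-0.68 to 0.76) for *Eef2*. In whole cell samples 7 of 8 members had negative values, from -0.95 (*Eef1e1*) to 0.05 (*Eef1d*), beside a median of -0.098 over all tested loci. Without the 4 samples with few loci, *Eef1a2* was called there, at -1.17 with an adjusted p of 0.0311 in limma, compared with -0.47 (-1.26 to 0.33) with all samples. The share of all tested loci called in that fit is not given here. Most other members were also lower in it, though not called, with -0.75 for *Eef1a1*, -0.68 for *Eef1b2*, -0.61 for *Eef2* and -0.60 for *Eef1g*. *Eef2k* had -0.44 and *Eef1e1* -2.01, while *Eef1d* had 0.03. The 2 remaining whole cell *miR-92b* samples held 753 and 684 normalized counts of *Eef1a2* and the 3 controls 1471 to 1801. edgeR and DESeq2 called no member in any comparison with control. Over all tested loci, DESeq2 called 4 higher and 17 lower for whole cell *miR-92b*, and 3 higher and 34 lower for whole cell Scr. It called 0 in the nuclear comparisons with control.

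Scr against control is the background of a mimic with no intended target. In nuclear samples no member passed the threshold (0% of all tested loci in limma). At an unadjusted p below 0.05 in limma there were 4 of 8 members, beside 916 of 15579 tested loci. All 4 members had positive values, 1.16 for *Eef1a1*, 1.04 for *Eef1b2*, 0.93 for *Eef1a2* and 0.92 for *Eef2* (adjusted p = 0.838 for each, limma). The 4 cytoplasmic mRNAs had a median log2 fold change of 0.87 in the same comparison. Without the 4 samples with few loci the values were 0.38 for *Eef1a1*, 0.12 for *Eef1b2*, 0.57 for *Eef1a2* and 0.40 for *Eef2*. In whole cell samples no member passed either (0% of all tested loci, with no member at an unadjusted p below 0.05 in limma). All 8 values were negative, from -1.73 (*Eef1e1*) to -0.15 (*Eef1d*), beside a median of -0.09 over all tested loci. The comparisons with Scr and with control share samples, so their values are not separate evidence.

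The balance of *miR-92b* against Scr depended on the unit in nuclear samples and passed no test. From counts, the *miR-92b* minus Scr log2 difference was -0.15 in nuclear (exact permutation p = 0.7) and 0.38 in whole cell samples (exact permutation p = 0.3), where 3 samples against 3 cannot give a p-value below 0.1. The count ratio of *Eef1a1* to *Eef1a2* was 32.4, 23.9 and 24.2 in the whole cell *miR-92b* samples and 18.5, 18.9 and 24.2 in the Scr samples. The highest Scr value lay above the lowest *miR-92b* value. From FPKM the nuclear difference turned to 0.44 (exact permutation p = 0.1, the smallest possible), with the lowest *miR-92b* ratio (23.04) just above the highest Scr ratio (22.98). The whole cell difference in FPKM was 0.23 (exact permutation p = 0.4).

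The other genes of the elongation machinery were described by 6 lists of 69 symbols, of which 51 loci were tested. In nuclear against whole cell samples 18 of 51 loci (35.3%) were lower and 7 (13.7%) were higher, beside 15.8% and 15.3% of all tested loci. Among 11 other cytosolic elongation and termination factors, 6 were lower and none was higher, with a median log2 fold change of -0.29. The lower loci with the highest mean were *Etf1*, the release factor that recognizes stop codons (-0.67 ± 0.12), *Abce1*, which splits ribosomes after termination (-0.73 ± 0.13), and *Eif5a*, which assists peptide bond formation (-3.05 ± 0.19).

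Of 9 tested loci for regulators of the eEF2 kinase, 5 were lower and 2 were higher (median -0.75). *Calm2* and *Calm3*, which encode the calmodulin that activates the kinase, had log2 fold changes of -1.25 and -2.50. The ribosomal S6 kinase genes went both ways, with *Rps6ka3* (0.46) and *Rps6kb1* (0.54) higher and *Rps6ka1* (-0.94) lower. Of 10 tested loci of the multi-tRNA synthetase complex, to which the product of *Eef1e1* belongs, 4 were lower and *Lars* was higher (0.51). *Dars* (-0.40), *Kars* (-2.63) and *Aimp1* (-0.79) were the lower loci with the highest mean. Kinase regulators and synthetase genes thus held loci that differed in both directions.

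Among 8 tested loci for enzymes that modify eEF1A and for its partners, 2 were lower, *Tpt1* (-3.06, in a locus with *Snora31*) and *Vars* (-0.51, in a locus with *Vwa7*). The ribosome rescue factor gene *Hbs1l* (0.34) and *Mettl21b*, a methyltransferase gene (2.39 at a mean normalized count of 13.7), were higher. Of 8 loci for diphthamide synthesis and eEF2 modification, *Dph5*, an enzyme that builds the modified histidine of eEF2, was higher (0.78) and none was lower. Of 5 mitochondrial elongation factor genes, *Tufm* was lower (-1.93) and *Guf1* was higher (0.82). In every comparison of *miR-92b*, Scr and control, none of the 51 loci passed the threshold in limma.

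The loci whose normalized counts followed those of the elongation factors most closely over the 18 samples were sought among 8279 loci with a mean of at least 100, as a description with no test. *Eef1a1* was followed most closely by *Rps2* (r = 0.996), *Rplp2* (0.996) and *Rplp0* (0.996), and *Eef2* by *Rps2* (0.997), *Rpl3* (0.995) and *Rpl8* (0.995), in loci of which 3 also list another gene. *Eef1a2* was followed by *Rps6* (0.978), *Rpl8* (0.977) and *Rplp0* (0.975). All of these encode ribosomal proteins. *Eef2k* had lower values, with *Jund* (0.804), *Nol12* (0.792) and a locus of *Natd1* and *Map2k3os* (0.785). Among the members, *Eef1a1* and *Eef2* had r = 0.999, while *Eef1d* and *Eef1a1* had 0.241. The points share library, depth and the compartment difference, which alone gives high values.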

How the data were processed

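RNA was selected with oligo-dT beads, prepared with a stranded kit and sequenced on an Illumina HiSeq. Per the submitters' processing notes, bcl2fastq 2.17, Trimmomatic 0.30, TopHat2 and Cufflinks were used with GRCm38 (mm10). The sources used here give no versions for TopHat2 and Cufflinks. Deposited by the authors were normalized counts, a signal of reads per locus divided by 1 size factor per sample, and FPKM, relative to transcript length and mapped fragments. Their comparison tables with fold changes and q-values were not used. Of 635205 normalized counts above 0, 100% were whole multiples of 1 read within 0.02 reads, so reads were recovered. The design had put raw counts first, and since the values are normalized counts, limma was the main test.

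limma 3.58.1 (R 4.3.3) with a variance trend was applied to log2(normalized count + 1) in 1 model of 6 groups over 15579 loci with a mean of at least 10, with two-sided p-values adjusted after Benjamini-Hochberg and called below 0.05. Fold changes on this scale understate the change of low loci, and 95% intervals come from the same fit. Loci without a symbol, with 4.51% to 15.3% of the reads, were left out. The balance was tested by exact permutation of *Eef1a1* to *Eef1a2* log2 ratios. The implied length used loci with at least 50 reads whose 1 transcript has at least 1000 bases. Copies were sought with blastn 2.17.0 and coding sequences aligned with Biopython 1.88. Alternatives were edgeR 4.0.16 and DESeq2 1.42.0 on recovered reads, other pseudocounts, filters and scalings, FPKM, sample weights, the sample number as a block and each sample left out. The tests were checked on simulated counts.

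Members and lists were chosen with earlier results of these data known. Named loci were the members, at most 3 called loci per list and direction with the highest mean, and the 3 loci most like *Eef1a1*, *Eef2*, *Eef1a2* and *Eef2k*. *Rps6ka1* was named outside this rule, as another S6 kinase gene of its list. Leaving out the 4 samples with few loci was added after the data were seen. A locus that the naming rule chose among the kinase regulators is not reported here.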

Additional observations from a re-analysis of the deposited data

How the results depend on the processing

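The direction and the call of the compartment differences of *Eef1a1*, *Eef2*, *Eef1b2*, *Eef1a2* and *Eef1g* held under every alternative run for the pooled comparison. *Eef1d* was called in FPKM (-1.02). *Eef1e1* was called with a pseudocount of 8, quantile normalization, sample weights, edgeR and DESeq2. It was also called in limma without nuclear Scr sample 1 (adjusted p = 0.0412), whole cell Scr sample 1 (0.00248) or whole cell *miR-92b* sample 2 (0.0131). The number of members called kept within 1.5 times except in the following. For nuclear against whole cell *miR-92b* samples it was 3 in place of 5 in a model of these groups alone, without *Eef1a2* and *Eef1g*. For whole cell *miR-92b* against control it was 1 in place of 0 without the 4 samples with few loci. Leaving out 1 sample at a time gave 5 to 6 members for the pooled comparison, 5 for control and for *miR-92b*, 2 to 5 for Scr (2 without whole cell Scr sample 3), and 0 in every comparison of treatments. The cause of these changes was not tested, and the shares of all tested loci called in these alternatives are not given here.

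The balance difference between compartments was -0.28 in FPKM, short of the threshold, and -1.64 to -1.51 with 1 sample left out. The nuclear *miR-92b* minus Scr balance turned to 0.44 in FPKM and to 0.33 without the 4 samples with few loci, and was -0.39 to 0.00456 with 1 sample left out. In whole cell samples it was 0.24 to 0.51 with 1 sample left out. The replicate block gave -1.59 for the balance between compartments, -0.15 for nuclear and 0.38 for whole cell *miR-92b* minus Scr, and 5 members in Scr in place of 4. Samples with the same number correlated at -0.04 to 0.11 in their deviations from the group means, and in none of 15 pairs of groups were all correlations above 0.1, so the numbers were not taken as a pairing.

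For single members, directions turned in values that had not passed the threshold. *Eef2k* between compartments turned to 0.000163 with quantile normalization and to 0.0149 without the 4 samples with few loci. For nuclear *miR-92b* against Scr, leaving out these 4 turned *Eef1a1* to 0.13, *Eef1b2* to 0.55, *Eef1d* to -0.0517 and *Eef1g* to 0.0603. FPKM turned *Eef1d* to -0.24, *Eef1g* to 0.29 and *Eef2k* to 0.37, quantile normalization turned *Eef1g* to 0.00184, *Eef2k* to 0.00719 and *Eef1e1* to -0.22, and *Eef1g* turned to 0.00116 with rescaled medians, 0.0172 with sample weights and 0.00888 in edgeR. For whole cell *miR-92b* against Scr, leaving out the 4 samples turned *Eef1a1* to -0.31, *Eef1g* to -0.27, *Eef2* to -0.15, *Eef2k* to -0.25 and *Eef1e1* to -0.28. Sample weights turned *Eef1a1* to -0.041, *Eef1g* to -0.0894, *Eef2k* to -0.34 and *Eef1e1* to -0.15, FPKM turned *Eef1a2* to 0.0835 and *Eef2k* to -0.67, and *Eef1a2* turned to 0.31 in DESeq2 and 0.28 in edgeR. With 1 sample left out, the nuclear values ranged from -0.86 to 0.081 for *Eef1b2*, -0.026 to 0.25 for *Eef1d*, -0.12 to 0.11 for *Eef1g* and -0.26 to 0.17 for *Eef2k*. The whole cell values ranged from -0.31 to 0.79 for *Eef1a1*, -0.76 to 0.33 for *Eef1a2*, -0.0158 to 0.37 for *Eef1d*, -0.27 to 0.60 for *Eef1g*, -0.15 to 0.79 for *Eef2*, -0.25 to 0.37 for *Eef2k* and -1.63 to 2.37 for *Eef1e1*.

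*Eef1e1* had the fewest reads of the members, with 0 to 573 in a sample. These did not always rise with depth. Whole cell Scr sample 1 held 0 of 6634894 reads on loci with a symbol and sample 2 held 144 of 5769804. The reason was not tested. With medians made equal between samples, the median difference over all tested loci between compartments was 0.23 in place of 0.14, with 2908 loci higher and 2119 lower in place of 2377 and 2454.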
